A study of Rattus norvegicus with 4 samples.

Results

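The Hippo pathway genes described here are 10 genes, *Yap1*, *Wwtr1*, *Tead1*, *Tead2*, *Tead3*, *Tead4*, *Lats1*, *Lats2*, *Stk3* and *Nf2*, chosen by their symbol from the 34773 genes of the deposited tables. Each symbol occurred once, and all 10 genes had enough counts to be tested. Poly(A) RNA of rat embryonic stem cells (ESCs) had been sequenced from 1 WT library and from 3 *Thop1*-KO libraries, 1 for each of subclones #1, #2 and #3. The WT cells are the ESC line DA-5-3 with a *Rex1*-GFP reporter, which the knockout cells also carry, and the subclones are colonies picked after transfection with Cas9 and sgRNA vectors and puromycin selection. The deposited design text calls the sequenced cells haploid, whereas the paper uses DA-5-3 as a diploid control. Rat ESCs in the paper were grown over feeders with LIF and the inhibitors PD0325901 and CHIR99021. Each subclone is 1 clone and WT is 1 culture, so the genotype cannot be told apart from a difference between that culture or library and the others.

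The Hippo pathway is a kinase cascade that reads cell contact, polarity and tension. MST kinases (genes *Stk3* and *Stk4*) with the scaffold SAV1 activate the LATS kinases with MOB1, LATS phosphorylates the coactivators YAP and TAZ (genes *Yap1* and *Wwtr1*), and the phosphorylated coactivators stay in the cytoplasm or are degraded. Without that phosphorylation they enter the nucleus, where, lacking a DNA-binding domain of their own, they act mainly through TEAD factors. In the early embryo this switch separates outer cells, in which YAP and TEAD4 turn on trophectoderm genes, from the inner cells that give rise to ESCs. RNA counts do not measure the phosphorylation or the place of these proteins.

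The 4 libraries held 15405499 to 17936544 counts on genes. *Thop1* itself, the targeted gene, was at 370 CPM (counts scaled to a fixed library total) in WT and at 92.5 to 149 in the subclones (log2 fold change -1.66 ± 0.29, the standard error or SE, with an adjusted p of 0.0187 by the quasi-likelihood test of edgeR). Defining ESC genes were abundant in every library, with 68758 to 85811 counts of *Pou5f1* and 5602 to 8735 of *Nanog*. Of the 11 ESC marker entries tested, however, 3 were called, beside 13.8% of all genes tested. *Dppa3* makes up 2 of these entries, at log2 fold changes of 1.125 and -0.609, neither called. *Zfp42* (*Rex1*) was not found by its symbol. The naive-state factors *Esrrb* (237 counts in WT and 5537, 5064 and 5894 in the subclones, log2 fold change 4.30) and *Tfcp2l1* (512 against 3881, 4485 and 5022, log2 fold change 2.89) rose, and *Utf1* (23275 against 10436, 7154 and 11253, log2 fold change -1.51) fell, each under all 12 alternatives that adjust the p-value. The part of these ESC genes in the results on the Hippo genes was not tested. Of 13 fibroblast markers in the table, which could come from feeder cells, 0 of the 10 tested were called, beside the same 13.8%. Before adjustment, 2 had a p below 0.05, as did 34.0% of all genes, and both were higher in the subclones. DESeq2 called *Col1a1* higher. *Dcn*, *Lum* and *Thy1* had 0 counts in every library. The fibroblast markers summed to 90.5 FPKM (counts scaled by gene length and library) in WT, 98.2 in #1, 218 in #2 and 128 in #3, so #2 stood apart in these genes. Of 10 primitive endoderm markers, 0 of the 8 tested were called, beside the same 13.8%. Before adjustment, 4 of these markers had a p below 0.05 beside the same 34.0%, 3 of them higher and *Gata4* lower. DESeq2 called 0 of these markers. Their summed level was 82.6 FPKM in WT and 120 to 170 FPKM in the subclones, of which *Lama1* alone made up 79.2 FPKM in WT and 114 to 164 FPKM in the subclones. These sums include abundant genes that ESCs also express, such as *Vim* and *Lama1*, and in bulk RNA fewer cells of a type cannot be told apart from less RNA per cell.

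Between the *Thop1*-KO subclones and WT, *Yap1* was the 1 of the 10 genes that rose, and 0 fell, where a call is a p of the edgeR quasi-likelihood test below 0.05 after Benjamini-Hochberg adjustment over all genes tested. Over the 15028 genes tested, 13.8% were called in either direction and 8.62% were called higher, so the count of 1 in 10 lies near the background. None was lower under DESeq2 or before adjustment either. Before adjustment, 4 of the 10 had a p below 0.05, *Yap1*, *Tead2*, *Tead3* and *Lats2*, against 34.0% of all genes. The median log2 fold change was 0.16 over the 10 genes and 0.06 over all genes tested. The WT library lay below all 3 subclones for 4 of the 10 genes (38.1% of all genes tested), above all 3 for 1 (37.6%) and inside their range for 5. Over all genes tested WT lay outside the range of the subclones for 75.7%.

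**Figure D1:**
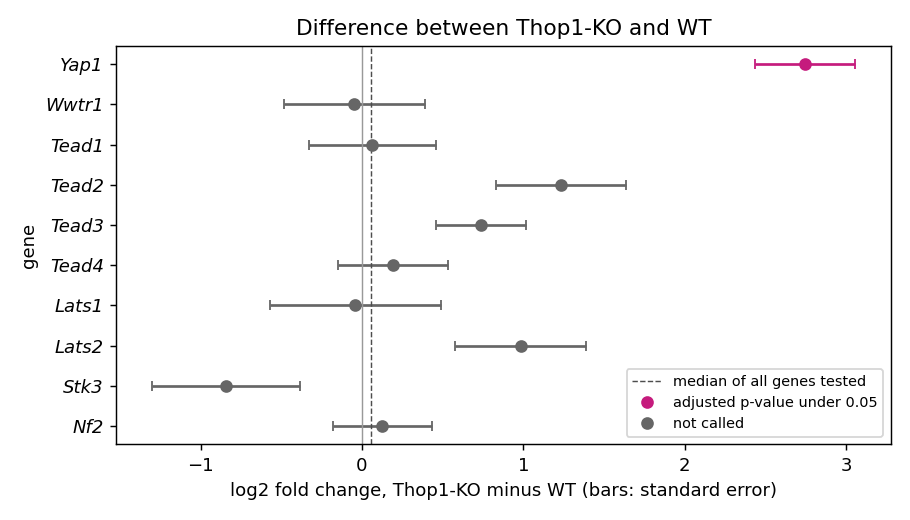
Log2 fold change of each of the 10 genes, *Thop1*-KO minus WT, on the x axis, with the standard error of the edgeR fit as bars and the median of all genes tested (0.06) as a dashed line. *Yap1* at 2.75 is the gene past an adjusted p-value of 0.05, *Tead2* at 1.23, *Lats2* at 0.98 and *Tead3* at 0.74 lie to the right of 0 without passing, and *Stk3* at -0.85 lies furthest to the left.

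*Yap1* (ENSRNOG00000005933, minus strand of chromosome 8, 6135493 to 6203579 in the coordinates of the deposited annotation) encodes YAP, the main coactivator of the pathway. It had 119 counts in WT and 898, 952 and 971 counts in #1, #2 and #3. In CPM normalized by TMM it was at 8.01 in WT, 53.5 in #1, 53.9 in #2 and 54.0 in #3. The subclones lay close together, with the highest 1.01 times the lowest, and all 3 lay far above WT. A spread this narrow is less than counting alone would usually give at these counts, so it does not measure how alike the clones are. The level in the subclones, 53.8 ± 0.25 CPM (SD, n = 3), was 6.72 times that of the 1 WT library. The log2 fold change of *Yap1* was 2.75 (SE 0.31, edgeR adjusted p = 0.00705), and its p-value ranked 122 among the 15028 genes tested. Leaving out any 1 subclone, the estimate stayed between 2.74 and 2.76 and the adjusted p-value reached at most 0.0275, without #3. *Yap1* overlaps no other gene of the table.

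*Wwtr1* (ENSRNOG00000016617, minus strand of chromosome 2, 147577089 to 147693082) encodes TAZ, the close relative of YAP. It had 200 counts in WT and 152, 311 and 223 in the subclones, so WT lay inside their range. Its log2 fold change was -0.05 (SE 0.44, edgeR adjusted p = 0.950), and the sign changed among the alternatives, from -0.32 to 0.17. The coactivators were therefore in a different order in the libraries. Per length, *Yap1* stood at 0.634 times the FPKM of *Wwtr1* in WT and at 6.30, 3.26 and 4.64 times in #1, #2 and #3. With a single WT library, 0.25 is the smallest one-sided p-value that exact permutation could reach, and such ratios are given without a test. The sum of both was 13.2 FPKM in WT and 42.1 ± 2.6 FPKM (SD, n = 3) in the subclones.

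The windows around the annotated gene starts were searched for the core of the TEAD binding site. The 300 bases printed for each gene run from 250 bases before a start to 50 bases after it, in RefSeq's assembly GRCr8, and not in the coordinates of the deposited files. Capitals mark GGAATG or its reverse complement CATTCC, found on the gene's strand. *Yap1* is shown as the gene called among the 10, *Vgll4* and *Nuak2* as called genes of the pathway and target lists described further on that hold the motif, and *Ccn2* as a textbook YAP target.
Yap1, chr8:13451388-13451687, minus strand: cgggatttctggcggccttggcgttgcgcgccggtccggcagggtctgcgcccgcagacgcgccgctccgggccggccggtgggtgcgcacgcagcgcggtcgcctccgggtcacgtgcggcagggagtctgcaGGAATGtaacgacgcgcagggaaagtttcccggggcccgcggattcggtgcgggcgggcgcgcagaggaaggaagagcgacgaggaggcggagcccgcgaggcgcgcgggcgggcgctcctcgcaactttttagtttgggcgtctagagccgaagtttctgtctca
Vgll4, chr4:149710165-149710464, minus strand: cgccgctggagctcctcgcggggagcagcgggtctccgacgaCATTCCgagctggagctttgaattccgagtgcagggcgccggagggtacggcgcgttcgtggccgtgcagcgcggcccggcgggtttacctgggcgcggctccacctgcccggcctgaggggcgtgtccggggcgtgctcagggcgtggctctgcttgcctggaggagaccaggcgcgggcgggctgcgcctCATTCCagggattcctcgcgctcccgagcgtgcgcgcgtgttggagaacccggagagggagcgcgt
Nuak2, chr13:46305756-46306055, plus strand: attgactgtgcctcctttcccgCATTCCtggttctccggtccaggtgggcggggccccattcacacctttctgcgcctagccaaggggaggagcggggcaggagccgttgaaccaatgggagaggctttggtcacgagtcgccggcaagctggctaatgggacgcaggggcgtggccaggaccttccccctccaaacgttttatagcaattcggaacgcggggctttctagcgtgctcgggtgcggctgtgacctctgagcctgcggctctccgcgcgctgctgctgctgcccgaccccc
Ccn2, chr1:22624565-22624864, minus strand: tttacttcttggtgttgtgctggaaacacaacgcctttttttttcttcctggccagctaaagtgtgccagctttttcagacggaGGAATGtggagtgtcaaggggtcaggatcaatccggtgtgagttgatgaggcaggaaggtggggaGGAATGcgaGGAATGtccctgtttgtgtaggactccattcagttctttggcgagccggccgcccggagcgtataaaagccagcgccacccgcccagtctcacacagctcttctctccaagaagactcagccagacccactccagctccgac
The *Yap1* window held 1 copy, beginning 116 bases before the start, and the *Ccn2* window held 3, at 166, 101 and 92 bases before it. In *Vgll4*, 1 of its 3 windows held the motif, with 2 copies at 208 and 16 bases before the start, and *Nuak2* held 1 copy at 228 bases. Windows were found for 5 of the 10 Hippo genes, and those of *Wwtr1*, *Tead3*, *Lats1* and *Nf2* held no copy. Of all 27457 genes with a window, 15.0% held the motif in at least 1, against 5 of the 15 YAP target genes and 12 of the 53 other pathway genes matched. Among the 12 called genes of these lists with a window, 3 held it. A match of 6 bases is a description of these letters and not of binding.

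The 4 TEAD genes encode the DNA-binding partners of YAP and TAZ. *Tead2* (ENSRNOG00000020695, plus strand of chromosome 1, 101213788 to 101230477) was the most abundant of the 10 genes per length in every library. It had 1009 counts in WT and 3440, 1874 and 3018 in #1, #2 and #3. In CPM these were 67.9 in WT and 205, 106 and 168 in the subclones, so WT was lowest and #2 was the subclone nearest to it. The log2 fold change was 1.23 (SE 0.41, edgeR adjusted p = 0.0862), and the spread among subclones, 160 ± 50.1 CPM (SD, n = 3), was wide. *Tead2* was called by DESeq2's Wald test (adjusted p = 0.0147), under which 2 of the 10 genes and 21.5% of all genes were called. With a p below 0.05 before adjustment and a fold change of at least 2, *Yap1* and *Tead2* passed, as did 26.9% of all genes. *Tead2* was also called by edgeR without #2 (adjusted p = 0.000433), when 37.9% of all genes were called.

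*Tead3* (ENSRNOG00000000506, minus strand of chromosome 20, 7908226 to 7930929) had 924 counts in WT and 1934, 1538 and 1948 in the subclones. It had a log2 fold change of 0.74 (SE 0.28, edgeR adjusted p = 0.120). WT was the lowest library for *Tead3* too. The counts are uncertain, because 2564 bases of *Tead3* overlap *Rpl10a* on the opposite strand. *Rpl10a*, a ribosomal protein gene that every cell uses, is listed at 0 in all 4 libraries, and without a stated strand setting reads of the pair cannot be told apart.

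*Tead4* (ENSRNOG00000005608, minus strand of chromosome 4, 161540130 to 161587222), the member with the textbook role in trophectoderm, had 671 counts in WT and 633, 1045 and 1043 in the subclones. *Tead1* (ENSRNOG00000015488, plus strand of chromosome 1, 177495782 to 177707061) had 115 counts in WT and 113, 139 and 174 in the subclones. For both, WT lay inside the range of the subclones. The log2 fold change was 0.19 (SE 0.34, edgeR adjusted p = 0.713) for *Tead4* and 0.06 (SE 0.39, edgeR adjusted p = 0.920) for *Tead1*.

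**Figure D2:**
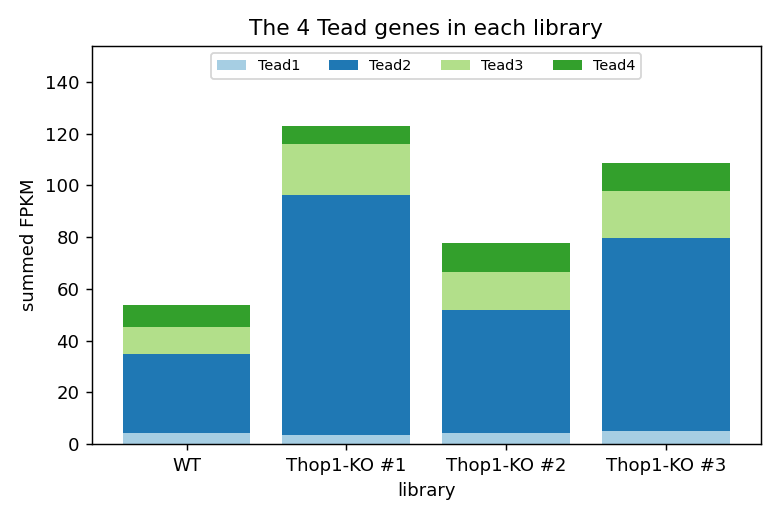
FPKM of *Tead1*, *Tead2*, *Tead3* and *Tead4*, stacked, on the y axis for each of the 4 libraries on the x axis. The bars sum to 53.6 in WT, 123 in #1, 77.7 in #2 and 109 in #3, and *Tead2* makes up the largest part of each.

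Summed over the TEAD genes, the level was 53.6 FPKM in WT and 123, 77.7 and 109 FPKM in #1, #2 and #3. *Tead2* made up 56.9% of the sum in WT and 75.4%, 61.4% and 68.7% in the subclones. The share of *Tead4* was 15.8% in WT, 5.79% in #1, 14.3% in #2 and 9.92% in #3. *Tead3* held 19.5% in WT and 15.8% to 18.8% in the subclones, and *Tead1* held 7.80% in WT and 2.98% to 5.48%. Subclone #2 was thus the subclone closest to WT in every one of these shares. Shares per length rest on the gene lengths of the deposited annotation.

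The kinases and their upstream regulator did not pass the test. *Lats2* (ENSRNOG00000056343, minus strand of chromosome 15, 37943609 to 37983882), a kinase of YAP that is itself a known target of YAP and TEAD, had 141 counts in WT and 399, 262 and 318 in the subclones. In CPM this was 9.49 in WT, 23.8 in #1, 14.8 in #2 and 17.7 in #3, with WT lowest. *Lats2* had a log2 fold change of 0.98 (SE 0.40, edgeR adjusted p = 0.140). Without #2 it was 1.13 (adjusted p = 0.0222 from edgeR), and *Tead3* also passed without #2, at 0.85 (adjusted p = 0.0109 from edgeR), so that 4 of the 10 genes were called in that setting, near the 37.9% of all genes called there.
*Lats1* (ENSRNOG00000014916, plus strand of chromosome 1, 1784078 to 1817310), the other LATS kinase, was the lowest of the 10 genes, with 43 counts in WT and 36, 63 and 49 in the subclones. At this depth its log2 fold change of -0.04 carried a standard error of 0.53. Per length, *Lats2* stood at 4.69 times *Lats1* in WT and at 15.8, 5.94 and 9.28 times in #1, #2 and #3.

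*Stk3* (ENSRNOG00000011278, minus strand of chromosome 7, 73618644 to 73883812), which encodes the kinase MST2, was the 1 of the 10 genes with WT above all subclones. It had 84 counts in WT and 45, 71 and 49 in the subclones, or 5.65 CPM against 2.68, 4.02 and 2.73. Its log2 fold change was -0.85 (SE 0.46, edgeR adjusted p = 0.236), and it stayed below 0 in every alternative, from -1.19 to -0.52, without being called in any. Its paralogue *Stk4* (MST1) was more abundant per length, at 9.31 FPKM in WT and 6.09, 7.15 and 7.51 FPKM in the subclones, with a log2 fold change of -0.43 (SE 0.27, edgeR adjusted p = 0.306). Together the MST genes stood at 11.3 FPKM in WT and 8.04 ± 0.85 FPKM (SD, n = 3) in the subclones.
*Nf2* (ENSRNOG00000007948, minus strand of chromosome 14, 84996905 to 85088523) encodes merlin, which brings LATS to the membrane. It had 588 counts in WT and 626, 925 and 718 in the subclones. The log2 fold change was 0.13 (SE 0.31, edgeR adjusted p = 0.796), and WT lay inside the range of the subclones.

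**Figure D3:**
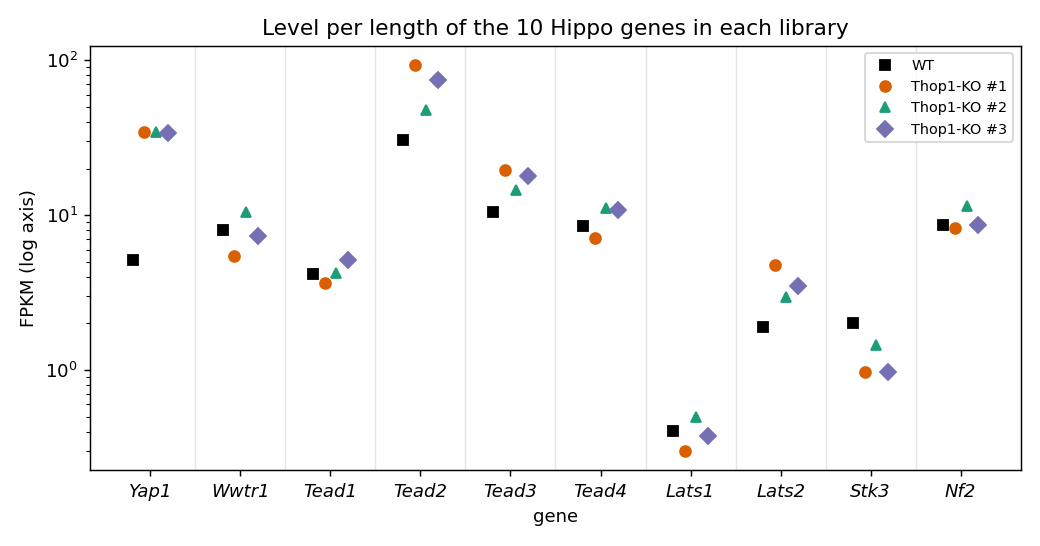
FPKM on a log axis of the 10 genes on the x axis in WT (black squares) and in *Thop1*-KO #1, #2 and #3 (coloured symbols), 1 point per library. The 3 *Yap1* points of the subclones lie at 34.1 to 34.4 above WT at 5.11, whereas for *Wwtr1*, *Tead1*, *Tead4*, *Lats1* and *Nf2* the WT point falls between those of the subclones.

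Ordered by FPKM, which allows for gene length, *Yap1* was the 6th of the 10 genes in WT and the 2nd in the mean of the subclones. This order rests on the lengths of the deposited annotation, from 1545 bases for *Yap1* to 7087 for *Lats1*. In WT the order was *Tead2* (30.5), *Tead3* (10.4), *Nf2* (8.70), *Tead4* (8.48), *Wwtr1* (8.06), *Yap1* (5.11), *Tead1* (4.19), *Stk3* (2.03), *Lats2* (1.89) and *Lats1* (0.403), from 1 library and with no spread. In the subclones *Yap1*, at 34.1 to 34.4 FPKM, lay below *Tead2* (47.7 to 92.8) and above *Tead3* (14.6 to 19.5) with no overlap of their ranges. *Tead4* (7.14 to 11.1), *Nf2* (8.26 to 11.5) and *Wwtr1* (5.46 to 10.5) overlapped one another, as did *Tead1* (3.67 to 5.17) and *Lats2* (2.95 to 4.77). *Stk3* (0.967 to 1.44) and *Lats1* (0.301 to 0.496) stood apart below them.

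The subclones did not vary alike in all genes. The highest subclone was 1.94 times the lowest for *Wwtr1* and for *Tead2* (in CPM), 1.66 times for *Lats1*, 1.61 times for *Lats2* and 1.01 times for *Yap1*. In CPM, subclone #1 was the highest and #2 the lowest of the subclones for *Tead2*, *Tead3* and *Lats2*, and the reverse held for *Wwtr1*, *Tead4*, *Lats1*, *Stk3* and *Nf2*. The fibroblast marker sum was also lowest in #1 and highest in #2 among the subclones, at 98.2 and 218 FPKM, and its part in these values was not tested. For *Yap1*, the level was 34.4 FPKM in both #1 and #2. WT, the lowest library for *Yap1*, also had the lowest fibroblast marker sum, 90.5 FPKM, and a relation between these values was not tested.

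The other genes of the pathway were taken from 4 lists of 62 genes, of which 59 were in the table and 57 were tested. Of these, 8 rose (14.0%), 0 fell and 49 did not pass. Over all genes tested, 8.62% were called higher, 5.17% lower and 13.8% in either direction. The median log2 fold change was 0.58 over the 57 and 0.06 over all genes tested. *Limd1*, with 4 counts in WT, passed the filter only through the subclones, so it could only be called higher. With at least 10 counts in every library, 7 of 53 pathway genes were called, beside 1770 of 11852 genes in all. Before adjustment, 19 of the 57 had a p below 0.05, 18 of them higher and 1 lower, beside 34.0% of all genes in either direction. DESeq2 called 11 higher and 0 lower, beside 21.5% of all genes in either direction. With both directions together, neither count stands above its share, though nearly all of these pathway genes were higher. By direction, DESeq2 called 1987 of 13973 genes higher and 1019 lower, beside 11 and 0 of the 57. The share of all genes by direction was not counted before adjustment. The list of kinases and adaptors had 1 called gene among 15, the junction and scaffold proteins 4 among 21, the STRIPAK phosphatase complex 1 among 12, and the cofactors with the turnover proteins 2 among 9. The count over the 4 lists was 23 without #2, when 37.9% of all genes were called, and 3 without #3, when 3.1% were.

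**Figure D4:**
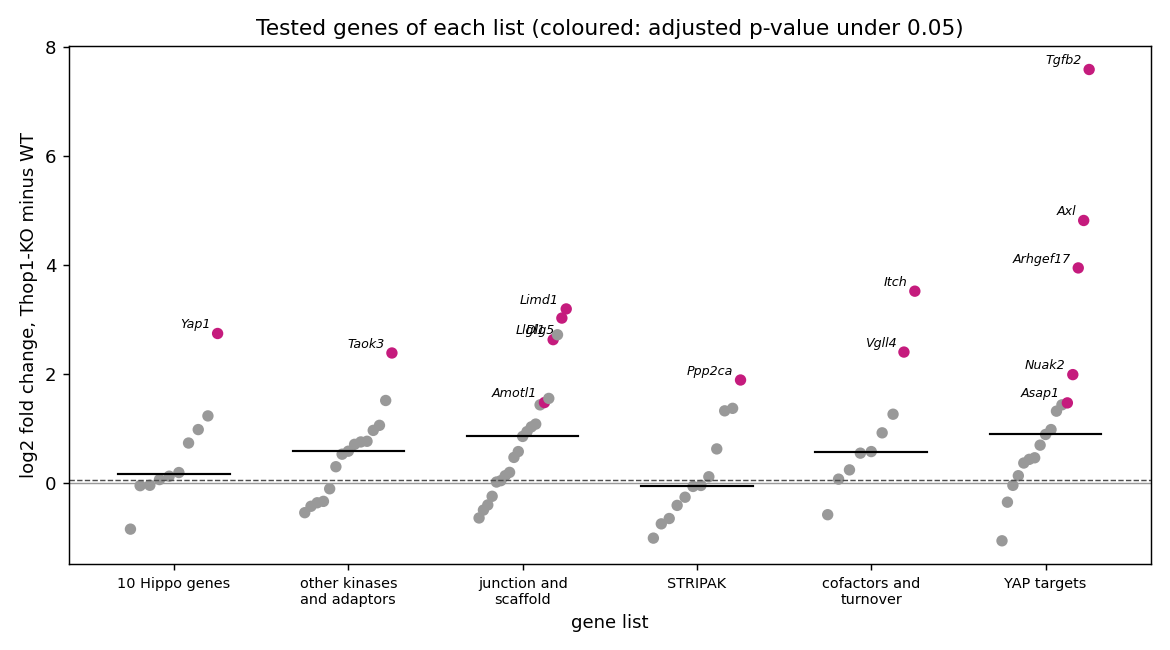
Log2 fold change, *Thop1*-KO minus WT, on the y axis for the tested genes of each list on the x axis, with the called genes coloured and named, the median of each list as a black line and the median of all genes tested (0.06) dashed. The medians run from -0.05 for STRIPAK to 0.89 for the YAP targets, and all called genes lie above 0. *Tgfb2*, the highest point, had 0 counts in WT, so its fitted value is no measure of size.

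Among the called scaffold genes, *Llgl1*, a basolateral polarity protein of the Scribble group, had 367 counts in WT and 2735, 2687 and 2607 in the subclones. Its log2 fold change was 2.63 (SE 0.28, edgeR adjusted p = 0.00701). *Dlg5*, a membrane-associated scaffold, had 162 counts in WT and 1266, 1427 and 1996 in the subclones, a log2 fold change of 3.03 (SE 0.38). Both lay far above WT in all 3 subclones and were called under all 12 alternatives that adjust the p-value. *Amotl1*, an angiomotin that binds YAP, went from 86 counts in WT to 268, 265 and 314, a log2 fold change of 1.48, and was called under 7 of the 12. *Limd1*, a LIM protein that binds LATS, had 4 counts in WT and 37, 48 and 48 in the subclones, and was called under 8 of 11. Among the 17 not called were *Amot* (log2 fold change 0.47), *Amotl2* (0.14), *Scrib* (0.58) and *Frmd6* (1.08). Others not called were *Patj* (-0.495), *Ajuba* (-0.401) and *Rassf1* (-0.64). These last 3 were the scaffold genes with WT above all subclones, and WT lay below all subclones for 12 of the 21 tested and inside their range for 6. Among all genes tested, WT lay below all 3 subclones for 38.1%, above all 3 for 37.6% and outside their range for 75.7%.

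Of the cofactors, *Vgll4*, which competes with YAP for TEAD, had 94 counts in WT and 545, 600 and 615 in the subclones. In CPM it was at 33.5 ± 0.928 (SD, n = 3) against 6.32, with a log2 fold change of 2.41 (SE 0.33, edgeR adjusted p = 0.0104). The adjusted p-value was 0.0501 without #3. *Itch*, an E3 ubiquitin ligase that acts on LATS1, had 13 counts in WT and 142, 221 and 170 in the subclones, a log2 fold change of 3.52 (SE 0.53), and stayed called under all 12 alternatives. *Taok3*, a kinase upstream of the MST kinases, went from 20 counts to 106, 122 and 144 (log2 fold change 2.39). *Ppp2ca*, a catalytic subunit of the phosphatase in STRIPAK, went from 139 counts to 481, 789 and 556 (log2 fold change 1.89), while its paralogue *Ppp2cb* was not called (log2 fold change -0.41). *Taok3* and *Ppp2ca* each lost their call without #3 alone, with adjusted p-values of 0.125 and 0.0876 from edgeR. *Sav1*, the MST scaffold, and *Mob1a*, the LATS cofactor, were not called (log2 fold changes 0.53 and -0.36).

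Of 22 genes widely used as a readout of YAP and TAZ, 21 were in the table and 17 were tested. *Lats2* is also 1 of these, and *Amotl2* and *Ptpn14* also stand in the scaffold list. Of the 17, 5 rose (29.4%), 0 fell and 12 did not pass, with a median log2 fold change of 0.89 beside 0.06. Over all genes tested, 8.62% were called higher, 5.17% lower and 13.8% in either direction. Of the 5, *Axl* and *Tgfb2* had 4 and 0 counts in WT. Both passed the filter only through the subclones, so they could only be called higher. With at least 10 counts in every library, 3 of 15 targets and 1770 of 11852 genes were called. The 4 genes not tested, *Ankrd1*, *F3*, *Nt5e* and *Rbms3*, had between 0 and 3 counts per library, too few for a difference to be detectable. The count of 5 fell to 1 under limma on log2(FPKM + 1), to 2 under limma on log2(FPKM + 0.1), when 12.7% and 12.4% of all genes were called, and to 2 without #3, when 3.1% were. It was 9 without #2, when 37.9% of all genes were called.

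*Arhgef17* rose from 40 counts in WT to 863, 583 and 733 in the subclones, a log2 fold change of 3.95 (SE 0.45, edgeR adjusted p = 0.00705), and was called under all 12 alternatives. *Axl*, a receptor tyrosine kinase, had 4 counts in WT and 79, 215 and 118 in the subclones, a log2 fold change of 4.82 (SE 0.89, edgeR adjusted p = 0.0211). The subclones of *Axl* differed among themselves, with #2 at 2.58 times #1 in CPM. *Tgfb2*, a TGF-beta ligand, had 0 counts in WT and 21, 31 and 23 in the subclones, at least 7.08-fold higher when WT is set at a floor of 3 counts. *Axl* was called under 10 of 11 alternatives, all but limma on log2(FPKM + 1) (adjusted p = 0.0757), and *Tgfb2* under 8 of 11, lost under both limma fits (adjusted p = 0.134 and 0.0692) and in edgeR without #3 (adjusted p = 0.0958). *Nuak2*, a kinase of the AMPK family, went from 82 counts to 521, 288 and 334 (log2 fold change 1.99), and *Asap1*, an Arf GTPase regulator, from 80 to 242, 291 and 251 (log2 fold change 1.47). *Nuak2* was called under 8 and *Asap1* under 6 of the 12 alternatives.

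The best known target genes did not pass. *Ccn2* (CTGF) had 646 counts in WT and 641, 885 and 691 in the subclones, and its log2 fold change was -0.04 (SE 0.29, edgeR adjusted p = 0.933). *Ccn1* (CYR61) had 363 counts in WT and 824, 489 and 402 in the subclones, a log2 fold change of 0.44 (SE 0.48, edgeR adjusted p = 0.543). WT lay inside the range of the subclones for both. *Myof* was the 1 of the 17 with WT above all subclones, at 597 counts against 285, 335 and 393 (log2 fold change -1.06, SE 0.29, edgeR adjusted p = 0.0562). Before adjustment 8 of the 17 were higher at a p below 0.05 and 1, *Myof*, was lower, beside 34.0% of all genes in either direction. *Myof* passed under DESeq2, with upper quartile scaling, with the correction for gene length and without #2.

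Among 10 trophectoderm genes, the lineage that depends on TEAD4 in the embryo, 6 were tested and 0 were called, beside 13.8% of all genes. Before adjustment in edgeR 0 had a p below 0.05, beside 34.0% of all genes. DESeq2 called 0 of them, beside 21.5% of all genes. *Cdx2*, the trophectoderm factor downstream of YAP and TEAD4, had 361 counts in WT and 56, 634 and 89 in #1, #2 and #3, so the subclones lay on both sides of WT. WT lay inside the range of the subclones for 4 of the 6 and below all 3 for 2. Among all genes tested, WT lay below all 3 for 38.1% and outside the range for 75.7%. The 2 trophectoderm genes with WT lowest were *Tfap2c* (2077 counts against 7319, 3064 and 5233, log2 fold change 1.10) and *Krt18* (1019 against 2278, 1551 and 1983, log2 fold change 0.70). *Gata3* and *Krt7* had 0 counts in every library, and *Elf5* and *Hand1* had at most 3.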

How the data were processed

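RNA-seq libraries of 1 WT culture and 3 *Thop1*-KO subclones were analysed, grouped by the deposited genotype and title. After trimming with the FASTX toolkit, the authors deposited raw counts per gene. The submitters' processing notes name HISAT2 2.0.5 and featureCounts 1.5.0-p3, whereas the genome build, the annotation version and the strand setting are not given in the sources used here. The authors also deposited FPKM values, which are the counts over gene length, each library scaled by 1 factor. The labels do not say whether the subclones are separate cultures beyond being separate clones, so p-values measure the spread between these libraries.

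In R 4.3.3, edgeR 4.0.16 was used on the counts, with filterByExpr (minimum count 10), TMM scaling and the quasi-likelihood test over all 4 libraries. Calls are Benjamini-Hochberg adjusted p-values under 0.05 over the 15028 genes kept. The control has 1 library, so the spread comes from the subclones. Standard errors are the absolute log2 fold change divided by the square root of the F statistic. Folds against a count of up to 3 are bounds. No pair of libraries was a duplicate by a chi-square test of their counts. The test was also run on simulated counts in which WT had the spread fitted to the subclones. Such counts cannot show how WT cultures vary.

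Alternatives were DESeq2 1.42.0, limma 3.58.1 on log2 of FPKM with 1 or 0.1 added, other scalings, filters and call rules, a loess correction for gene length (span 0.3) and leaving out each subclone. The 10 genes and the gene lists were chosen with earlier results of these data known. Named are the 10 genes, each called gene of a pathway or target list, genes of textbook role, and *Thop1*. *Myof*, *Amot*, *Amotl2*, *Scrib*, *Frmd6*, *Patj*, *Ajuba*, *Rassf1*, *Ppp2cb*, *Col1a1* and the untested or marker genes were chosen after their values were seen. Start windows come from RefSeq on GRCr8, matched by symbol. Python 3.11.15, pandas 2.3.3 and matplotlib 3.10.9 made the summaries and plots.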

Additional observations from a re-analysis of the deposited data

How the results depend on the processing

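*Yap1* was called under all 12 alternatives that adjust the p-value, with log2 fold changes of 2.53 to 2.82 and adjusted p-values of 7.59e-12 (DESeq2) to 0.0275 (edgeR without #3). The count of called genes among the 10 was 2 under DESeq2, 2 for a p below 0.05 before adjustment with at least a fold change of 2, and 1 to 4 with a subclone left out. For the other pathway genes the count of 8 became 13 under that unadjusted rule and 3 to 23 with a subclone left out. For the YAP targets the count of 5 became 8 under the unadjusted rule, 3 with at least 10 counts in every library, which leaves 15 of the 17 genes, 1 under limma on log2(FPKM + 1), 2 under limma on log2(FPKM + 0.1), and 2 to 9 with a subclone left out. Over all genes the count of 2072 became 4040 under the unadjusted rule and ran from 457 without #3 to 5572 without #2. The cause was not tested. Of the 2072 genes called with all libraries, 2072 were also called without #2 and 453 without #3. The correction for gene length moved the median log2 fold change of all genes from 0.06 to -0.12 and the calls from 1295 higher and 777 lower to 1053 higher and 1041 lower. Of the 10 genes, 5 that were not called, and *Ccn2*, changed sign in log2 fold change. With the length correction *Tead4*, *Tead1* and *Nf2* stood at -0.24, -0.11 and -0.28. Scaling by library size alone put *Wwtr1*, *Lats1* and *Ccn2* at 0.038, 0.04 and 0.036, and upper quartile scaling put *Tead1* at -0.033. With a subclone left out, *Wwtr1* ran from -0.324 to 0.167, *Tead1* from -0.084 to 0.19, *Lats1* from -0.245 to 0.13, *Nf2* from -0.033 to 0.232 and *Ccn2* from -0.18 to 0.036. None of these values was called. When TMM-scaled counts per kilobase replaced FPKM, the TEAD sum went from 53.6 to 54.3 in WT. In the mean of the subclones it went from 103 to 105. Shares and ratios within a library cannot change in that swap, because both scales divide the same counts by gene length, so it does not check them. *Lats1*, with 36 to 63 counts a library, is limited by depth. No paired analysis was possible because WT is a single library.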
